A study of Homo sapiens with 6 samples.

Results

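Among 20211 transcript models with a mean of at least 100 ribosome footprints per library, 415 (2.05%) took up a larger share of footprints under RocA in both a naive and an aglaiacized cell line. They were chosen by 2 measured values. The naive response is the log2 ratio of RocA to mean DMSO CPM (counts scaled to the library total, with 1 CPM added to each side), less the median of that ratio over the 20211 models. The aglaiacized response is the same quantity in the other line. Members had a naive response of at least 1.5 and an aglaiacized response of at least 1, which are 2.83-fold and 2-fold relative to the median model. The RocA responses below therefore describe the selection and carry no test. Of the 1799 models past the naive threshold, 23.1% were members, and 1384 passed in naive cells only. Of the 532 past the aglaiacized threshold, 78.0% were members, and 117 passed in aglaiacized cells only.

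The cells were HEK293T-REx, a derivative of a human embryonic kidney line that carries the tetracycline repressor. Each line had 2 libraries from cells given DMSO, the solvent, and 1 library from cells given RocA (rocaglamide A). In the study the aglaiacized line has an eIF4A1 with residues of Aglaia, the plant genus that makes RocA. That reading comes from knowledge of the study, and the eIF4A counts could not be looked up to check it. No dose or time was used here, and how either line was derived, including whether it is 1 clone, is not given in the sources used here. The labels do not say that the DMSO libraries came from separate cultures, so a p-value here speaks of the spread among the deposited libraries, which may be technical.

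Ribosome profiling sequences the RNA fragments that translating ribosomes protect from nuclease, so footprints on a coding region follow the ribosomes on it. The helicase eIF4A unwinds the start of an mRNA so that the small ribosomal subunit can load and scan. RocA clamps eIF4A onto polypurine stretches, which blocks scanning on many mRNAs. CPM sum to the same total in every library, so a higher CPM is a larger share of the footprints, and a smaller loss than on other mRNAs cannot be told apart from more ribosomes on the mRNA.

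The files pair transcript identifiers with a length but not with a gene. None of the members' identifiers was found in the reference gene table, so genes are not named and no sequences are shown. The length has no stated unit and has the size of a protein length. It is called the listed length and is given without a unit. Total counts over models ran from 8219273 in naive RocA to 28428267 in an aglaiacized DMSO library. Rows with equal counts in all 6 libraries were merged into 1 model, and the members stand for 443 rows. Neighbouring rows can be isoforms of 1 gene that share reads, and they were not merged where their counts differed. Members within 5 file rows of each other were grouped into 214 runs. Of these, 116 runs held 1 member and 98 held the other 299. Among 201 neighbouring pairs within runs, 68 had counts within 10% of each other in all 6 libraries. Numbers of members are thus not numbers of genes, and separate runs can also hold nearly equal counts.

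The increase of members under RocA was smaller in aglaiacized than in naive cells. The naive response ran from 1.503 to 3.27 with a median of 1.97, and the aglaiacized response from 1.00008 to 1.83 with a median of 1.09. These medians are 3.92-fold and 2.13-fold relative to the median model. The aglaiacized response was the larger in 0 of 415 members, against 9334 of all 20211 models. In the 1384 models past the naive threshold only it cannot be the larger, since it is below 1 there by definition. The highest aglaiacized response of any of the 20211 models was 1.83. A naive threshold of 1.5 thus leaves little room for the other order, and the order is not read as a trait of members. The difference was 0.20 to 1.96 with a median of 0.85. The aglaiacized response was 37.0% to 87.6% of the naive response, with a median of 56.6%. In the models past the naive threshold only, the median was 43.1%, a value that the choice of those models sets in part.

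**Figure D1:**
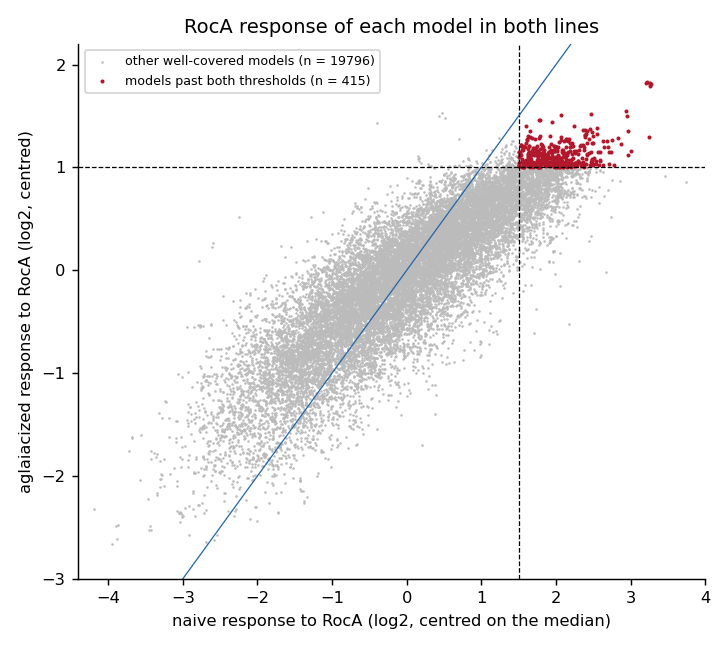
Each point is 1 of 20211 models, with the naive response on the horizontal axis and the aglaiacized response on the vertical axis (both log2, centred on the median model). Dashed lines mark the thresholds of 1.5 and 1, and the solid line marks equal responses. All 415 members (red) lie below the line of equal responses, and 6 of them stand apart at the upper right.

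On the CPM scale, the median member had 22.8 and 23.2 CPM in the naive DMSO libraries and 69.6 CPM in naive RocA. In aglaiacized cells it had 23.6 and 24.2 CPM in DMSO and 46.5 CPM in RocA. The member medians thus were close to each other in all 4 DMSO libraries and highest in naive RocA. The median over all 20211 models moved the other way, from 18.1 and 18.3 CPM in naive DMSO to 12.4 CPM in naive RocA. In aglaiacized cells it went from 17.7 and 17.5 CPM to 14.2 CPM. RocA exceeded both DMSO libraries before any centring in 415 of 415 members in naive cells, against 30.4% of all models. It did so in 415 of 415 in aglaiacized cells, against 32.7%. Both counts follow from the rule.

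All members together held 4.10% and 4.09% of the footprints of the naive DMSO libraries, and 11.96% of those of the naive RocA library. The shares in aglaiacized cells were 4.50% and 4.77% with DMSO and 8.72% with RocA. Models that share reads are counted more than once in these shares. With only the most counted member of each run, the shares were 1.84% and 1.84%, then 5.40%, in naive cells, and 2.01% and 2.11%, then 3.86%, in aglaiacized cells. Either way, the share was higher with RocA than with DMSO in each line, and more so in naive cells. The rule fixes the rise in each line and favours the larger rise in naive cells, so neither is read as a result about members.

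By naive response, 227 members lay between 1.5 and 2, 153 between 2 and 2.5, 27 between 2.5 and 3, and 8 above 3, of which 6 belong to 1 run. Their median aglaiacized responses were 1.08, 1.08, 1.15 and 1.81, but the rule cuts these values at 1. Over all well-covered models in the same bands, members or not, the medians were 0.829, 0.952 and 1.07 in the lower 3 bands, and the 10 models above 3 ran from 0.857 to 1.83. The aglaiacized response thus went up with the naive one, and stayed below it. The share of naive rises that were also aglaiacized rises went up with the naive response, from 17.1% of 1327 models between 1.5 and 2 to 36.4% of 420, 64.3% of 42 and 80.0% of 10.

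Many members lay close to the aglaiacized threshold. It was passed by under 0.1 in 219 members and by under 0.05 in 146. Another 363 models with a naive response of at least 1.5 missed it by 0.1 or less. The nearest values on both sides were 1.00008 and 0.99984. The naive threshold was passed by under 0.1 in 32 members, and its nearest values were 1.504 inside and 1.496 outside. The RocA counts behind these values ran from 84 to 53380 in naive cells (median 572) and from 24 to 45228 in aglaiacized cells (median 387). The counting error alone gave each response a standard error with a median of 0.079 in naive and 0.084 in aglaiacized cells. By its 95% counting interval, which leaves out the spread between libraries, 291 members could not be placed on one side of the aglaiacized threshold, against 76 at the naive one. Both thresholds were passed by more than this interval in 112 members.

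The responses were also taken against each DMSO library alone. Against naive DMSO replicate 1, 403 members kept a response of at least 1.5, and against replicate 2, 399 did. Against aglaiacized DMSO replicate 1, 360 kept a response of at least 1, and against replicate 2 only 302. The aglaiacized side of the selection thus turned more on the choice of DMSO library. With every pairing of 1 naive and 1 aglaiacized DMSO library, 227 members remained.

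**Figure D2:**
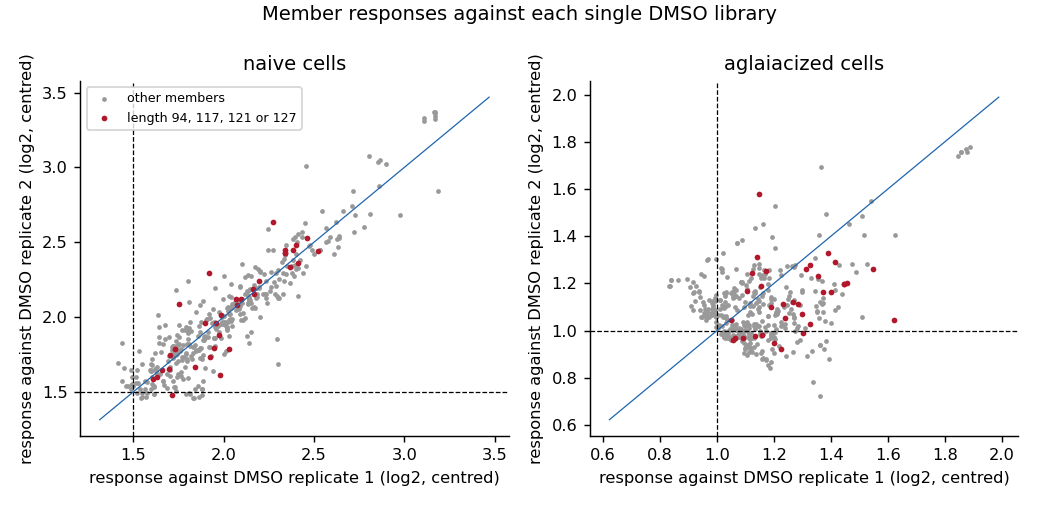
Each point is 1 of 415 members, with its centred log2 response against DMSO replicate 1 on the horizontal axis and against DMSO replicate 2 on the vertical axis, for naive (left) and aglaiacized cells (right). Dashed lines mark the thresholds, the solid line marks equal values, and red marks members of the 4 listed lengths 94, 117, 121 and 127. Points fall below a threshold more often in aglaiacized cells, where 360 and 302 members passed it.

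Members were ranked by the smaller of their 2 responses. Ranks 1 to 6 were the 6 models of 1 run, with listed lengths of 2400 to 2624. The first of them, uc003djl.2 (listed length 2413), had 10.2 and 8.65 CPM in naive DMSO and 64.8 CPM in naive RocA. In aglaiacized cells it had 3.70 and 4.05 CPM in DMSO and 13.7 CPM in RocA. Both RocA libraries lay above both DMSO libraries of their line, and the aglaiacized DMSO libraries lay below the naive ones. The aglaiacized RocA value came from 114 counts, with an exact Poisson 95% interval of 11.3 to 16.5 CPM that covers counting error only. The responses of uc003djl.2 were 3.22 and 1.83. The model with the most counts in the run, uc010hne.2 (listed length 2624), had 11.4 and 9.77 CPM in naive DMSO and 74.5 CPM in naive RocA. It had 4.41 and 4.78 CPM in aglaiacized DMSO and 15.8 CPM in aglaiacized RocA. Its responses were 3.27 and 1.82. All 6 models had responses of 3.21 to 3.27 and 1.79 to 1.83, and neighbouring models with such close counts are not separate observations.

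The next runs, numbered by the rank of their best member, differed in level and in length. In run 2, the most counted model (listed length 194) had 16.5 and 14.4 CPM in naive DMSO and 84.7 CPM in naive RocA. It had 22.5 and 22.8 CPM in aglaiacized DMSO and 55.5 CPM in aglaiacized RocA, with responses of 2.95 and 1.499. Here the DMSO level was higher in aglaiacized than in naive cells, the reverse of the leading run. Run 3 was 1 model of listed length 78. It had 6.83 and 6.09 CPM in naive DMSO, 26.9 CPM in naive RocA, 7.59 and 5.804 CPM in aglaiacized DMSO and 17.7 CPM in aglaiacized RocA. Its DMSO libraries overlapped between the lines.

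Run 4 was 1 model of listed length 1648. It had 22.2 and 20.3 CPM in naive DMSO and 61.8 CPM in naive RocA, against 7.69 and 9.08 CPM in aglaiacized DMSO and 21.6 CPM in aglaiacized RocA. The aglaiacized RocA level of this model lay within the range of its naive DMSO levels. Run 5 held the long model of listed length 4637, with 170.8 and 162.6 CPM in naive DMSO and 386.7 CPM in naive RocA. In aglaiacized cells it had 152.1 and 152.4 CPM in DMSO and 355.5 CPM in RocA. With responses of 1.77 and 1.46, it kept most of its rise. The aglaiacized RocA level exceeded the naive RocA level in 29 of 415 members, in 57 of 1384 models past the naive threshold only and in 13434 of all 20211 models. It was below the naive DMSO mean in 4 members, in 84 of the models past the naive threshold only and in 13078 of all models. These counts are set in part by the thresholds.

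**Figure D3:**
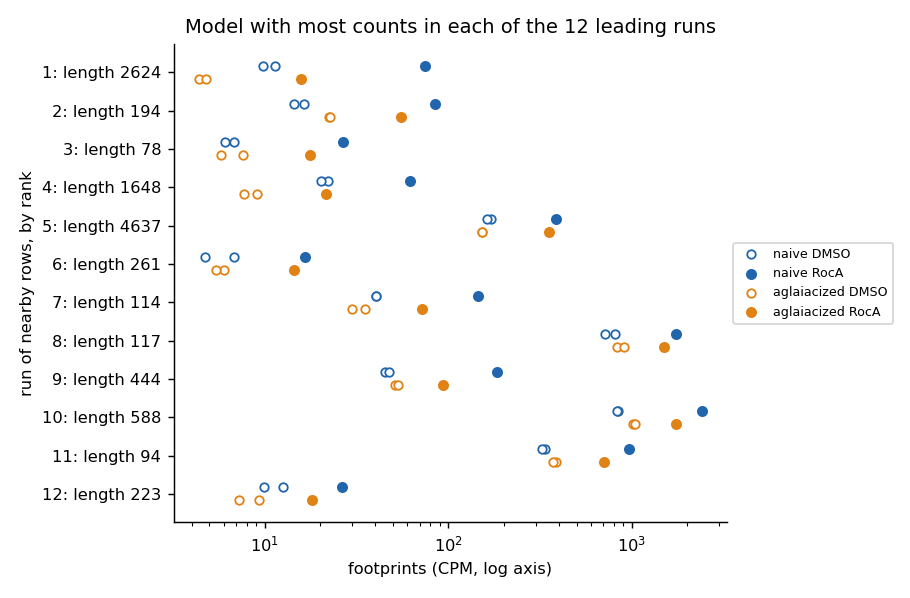
Footprints in CPM (log axis) in each of the 6 libraries for the most counted model of the 12 leading runs, in order of rank and labelled by listed length. Open circles are DMSO libraries (2 per line) and filled circles RocA libraries (1 per line), in blue for naive and orange for aglaiacized cells. RocA lies above both DMSO libraries of its line in every run, and the DMSO pairs of the 2 lines overlap in runs 3 and 6 only.

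Members were spread unevenly over listed length, which the rule did not use, with larger shares at both ends of the range. Members had a median listed length of 335 (quartiles 149.5 and 644, range 52 to 4675), and the 20211 models had a median of 445 (quartiles 265 and 724). At most 150 was listed for 105 members (25.3%), in 69 runs, and for 8.70% of all models. With 1 member per run the share was 25.7%, and in models past the naive threshold only it was 18.6%. By length group, 6.73% of the models up to 100 and 5.65% of those from 101 to 150 were members. The share fell to between 1.20% and 1.76% from 201 to 2000 and was 4.27% above 2000. Models share reads and no test of these shares was made.

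**Figure D4:**
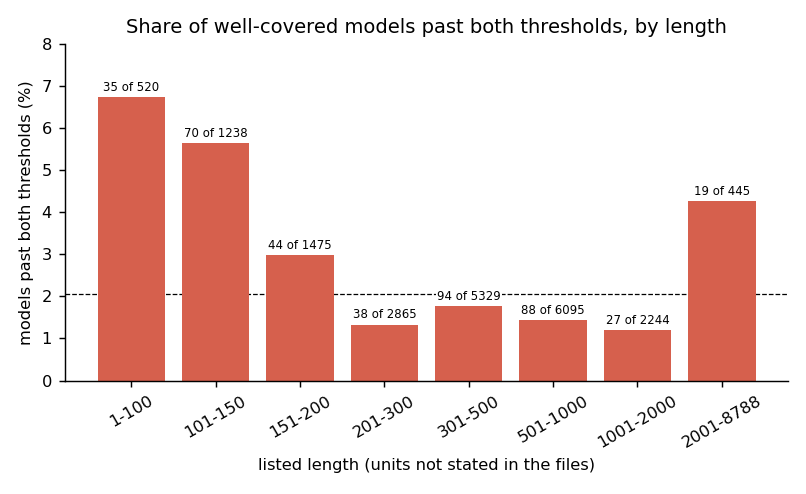
Bars give the percentage of well-covered models in each group of listed length (unit not stated) that are members, with the counts above each bar. The dashed line is the 2.05% over all 20211 models. The bars are highest up to 150 and rise again above 2000, where 19 of 445 models are members.

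The minimum mean count of 100 asks for more footprints per length of a short model than of a long one. Members were therefore counted in 5 equal groups of mean CPM over the DMSO libraries of both lines, per 100 units of listed length. From the lowest to the highest group, 1.58%, 1.09%, 1.56%, 2.35% and 3.69% of models were members. Among models of listed length up to 150, which fell into the upper 3 groups, the shares were 7.89% (9 of 114), 3.24% (17 of 525) and 7.06% (79 of 1119). Longer models in those groups had shares of 1.37%, 2.22% and 2.39%. The share was thus higher in short models at each of these levels.

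Above a listed length of 2000, 28 models passed the naive threshold and 19 of them (67.9%) were members, in 10 runs. Without the leading run, the number was 13 of 22 (59.1%). Among shorter naive rises, 22.4% of 1771 were members. Of the 10 runs, those with listed lengths of 4565 and 4675 had nearly equal counts in all 6 libraries and may share reads. Other than the leading run and the model of listed length 4637, the long members included a pair of listed lengths 4298 and 4305 from 1 run. The model of 4305 had 56.6 and 52.3 CPM in naive DMSO and 165 CPM in naive RocA, and 41.5 and 32.5 CPM in aglaiacized DMSO and 69.3 CPM in aglaiacized RocA. Its aglaiacized RocA level was above all 4 DMSO libraries but far below its naive RocA level.

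A few exact lengths recurred among the short members. The 4 most frequent lengths among members, picked after their values were seen, were 127, 121, 94 and 117. Of 37 well-covered models of listed length 127, 13 (35.1%) were members. For listed length 121 it was 8 of 37 (21.6%), for 94 it was 7 of 30 (23.3%) and for 117 it was 6 of 34 (17.6%). Together, these lengths held 34 of the 415 members, in 12 runs, from 138 models. Most of the 105 members listed at most 150 thus had other lengths. Over all well-covered models listed at most 150, 5.97% were members. Over the whole range of lengths, short and long, 431 exact lengths had at least 20 well-covered models, and 263 of them had no member.

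These 34 members had naive responses of 1.598 to 2.499 (median 2.04) and aglaiacized responses of 1.01 to 1.399 (median 1.19). Their naive DMSO level per 100 units of listed length had a median of 143.7 CPM, against 7.96 CPM for all members and 4.27 CPM for all models. Although few, they held 34.4% and 33.9% of the members' footprints in naive DMSO and 35.8% in naive RocA. In aglaiacized cells they held 38.0%, 39.9% and 41.2%. The most counted of them, of listed length 127, had 1890 and 1778 CPM in naive DMSO and 6494 CPM in naive RocA. It had 2363 and 2792 CPM in aglaiacized DMSO and 5438 CPM in aglaiacized RocA, with responses of 2.39 and 1.32. A neighbouring model of the same listed length had nearly equal counts in every library, so counts of near-identical copies may have been split or repeated, and their separate values are uncertain.

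Many of these members also lay close together in the files. Between file rows 24001 and 24500, 24 of 87 models (27.6%) were members, and 23 of the 24 had 1 of the 4 lengths. They fell into 6 runs. All 87 models of that stretch had median responses of 1.38 in naive and 0.67 in aglaiacized cells. Without the members, which the rule picked for high values, these medians were 0.26 and -0.10. The stretch of 500 rows with the next largest number of members had 16 of 194 models (8.25%), and a stretch with 12 of 123 had a larger share (9.76%). The median stretch had 2 members.

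The lines were next compared without RocA, a contrast that the rule did not set, although the same DMSO libraries entered it as the base of both responses. Counts were fitted with edgeR's quasi-likelihood test over 31237 models, with Benjamini-Hochberg adjustment over them and a threshold of 0.05. In aglaiacized DMSO, 135 members (32.5%) were higher than in naive DMSO, against 19.0% of all tested models. Another 76 members (18.3%) were lower, against 16.6% of all. The remaining 204 did not pass the test. Since calls depend on counts, the 20211 well-covered models are the closer background, with 24.0% higher and 18.3% lower. Members still had more counts than this background, with a median mean count of 485 against 299. The members' share called higher lay above that background and their share called lower equalled it, with no test of the shares. With 1 member per run, 38.8% were higher and 15.4% lower. Models past the naive threshold only had 46.6% higher and 8.31% lower, and those past the aglaiacized threshold only had 8.55% higher and 44.4% lower. A high naive DMSO level lowers the naive response and a high aglaiacized one lowers the aglaiacized response, so these shares are not independent of the rule.

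The number of calls turned on single libraries, in members and in all models. Leaving out 1 DMSO library leaves that line with a single one, which is then assumed to vary like the remaining pair of the other line. Without naive DMSO replicate 1, 87 members were higher and 44 lower (31.6% called, against 17.5% of all models). Without naive DMSO replicate 2, it was 82 and 40 (29.4% against 16.8%). Without aglaiacized DMSO replicate 1, it was 157 and 94 (60.5% against 45.1%), and without replicate 2, 111 and 65 (42.4% against 28.2%). DESeq2 called 93 higher and 41 lower (32.3% against 17.6%). In each of these fits a larger share of members than of all tested models was called. In the edgeR fits, the tested models include ones with a mean count under 100, which no member has. With all 6 libraries and a mean count of at least 100 required, 51.1% of members were called, against 43.1% of models. Those models still had fewer counts than members at the median. With total counts in place of TMM-scaled library sizes, 117 members were higher and 93 lower, so that 55.7% of called members were higher, against 64.0% in the fit above. Over all called models, that share went from 53.4% to 41.0%.

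**Figure D5:**
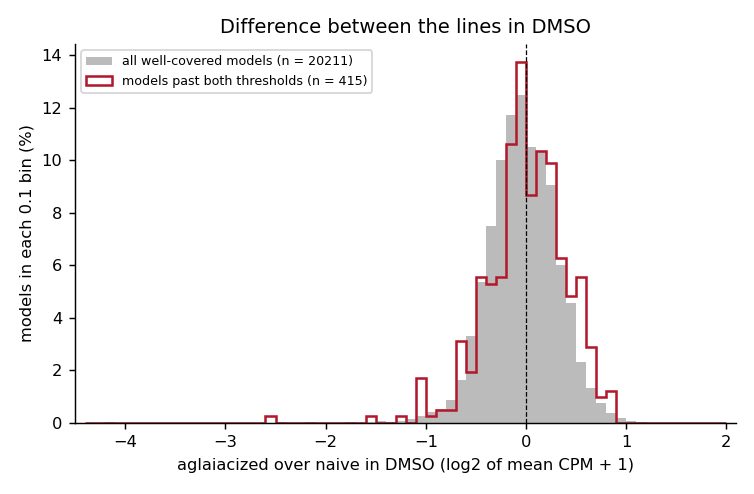
The horizontal axis is the log2 ratio of mean CPM + 1 in aglaiacized over naive DMSO, and the vertical axis the percentage of models in each bin of 0.1, for all 20211 models (grey) and the 415 members (red line). Both distributions centre near 0 (medians of -0.04 and 0.003). Members run from -2.55 to 0.88, and the red step near -1 includes the 6 models of the leading run.

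The direction of the DMSO difference went with listed length. Of the 105 members with a listed length of at most 150, 57 were higher in aglaiacized DMSO and 9 lower (54.3% and 8.57%). Among all 1758 well-covered models of that length, 31.9% were higher and 15.6% lower. Of the 19 members above 2000, 1 was higher and 16 were lower, or 1 and 10 of 13 without the leading run. All 445 well-covered models above 2000 had 8.54% higher and 39.3% lower. Members between these lengths had 77 higher and 51 lower of 291 (26.5% and 17.5%). All 18008 well-covered models between these lengths were close to that, with 23.7% higher and 18.0% lower. With total counts in place of TMM-scaled sizes, 63 of these members were higher and 64 lower. For these members the numbers were 42 and 29 without naive DMSO replicate 1, 41 and 22 without replicate 2, and 46 and 27 with DESeq2. The median log2 fold change was 0.31 in the short and -0.50 in the long members. Without naive DMSO replicate 1, 45 short members were higher and 2 lower, and 13 long members were lower and 0 higher. Without naive DMSO replicate 2, these numbers were 41, 4, 14 and 0. DESeq2 called 46 short members higher and 3 lower, and 1 long member higher and 11 lower, or 1 and 5 of 13 without the leading run. Without that run, 7 and 8 of the 13 were lower when naive DMSO replicate 1 or 2 was left out. The same direction by length is present over all models, and whether members differ from other models of their length was not tested.

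Members of the 4 most frequent lengths were mostly higher in aglaiacized DMSO, 25 of 34, with 2 lower. Over all 138 models of these lengths, 50.7% were higher and 9.42% lower. The most counted model of listed length 127 was higher by 0.55 ± 0.07 (log2, SE; edgeR adjusted p = 2.79e-11), and its 2 aglaiacized DMSO libraries both lay above the naive ones.

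A small number of members differed by 2-fold or more in DMSO. Lower by at least 2-fold were 11 members (2.65%, in 5 runs), against 1.72% of all tested and 0.851% of all well-covered models, and 6 of the 11 were the leading run. Higher by at least 2-fold were 3 members (0.723%), against 0.663% of all tested and 0.401% of all well-covered models. The number higher was 5 without aglaiacized DMSO replicate 1, 1 without replicate 2 and 1 with total counts. The number lower ran from 9 to 14 over the fits with 1 library left out. With such small numbers, and 6 of the 11 from 1 run, nothing is read from the shares. In the leading run, uc003djl.2 differed by -1.22 ± 0.16 (log2, SE; edgeR adjusted p = 6.09e-10) and uc010hne.2 by -1.14 ± 0.15 (edgeR adjusted p = 1.01e-09). For the model of listed length 1648 the difference was -1.27 ± 0.12 (log2, SE; edgeR adjusted p = 1.05e-14). It and the leading run thus combined a large rise under RocA in both lines with a lower starting level in aglaiacized cells.

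The deepest loss was in a member of listed length 201 at rank 323. It had 11.5 and 12.8 CPM in naive DMSO and 31.8 CPM in naive RocA, but only 1.12 and 1.37 CPM in aglaiacized DMSO and 2.89 CPM in aglaiacized RocA. Its log2 fold change in DMSO was -3.20 (SE 0.19, edgeR adjusted p = 5.87e-28). All 3 of its aglaiacized libraries lay below the lowest naive one, and its 1.03 aglaiacized response rests on 24 counts in RocA. At rank 268, a member of listed length 121 had 52.4 and 62.3 CPM in naive DMSO, 147 CPM in naive RocA, 19.0 and 19.0 CPM in aglaiacized DMSO and 34.0 CPM in aglaiacized RocA. It fell between the lines by 1.53 on the log2 scale, against the direction of most members of its length.

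The largest gain was in a member of listed length 178 at rank 117. It had 3.20 and 4.22 CPM in naive DMSO and 11.6 CPM in naive RocA, and 7.69 and 7.63 CPM in aglaiacized DMSO and 15.4 CPM in aglaiacized RocA. Its log2 fold change in DMSO was 1.11 (SE 0.17, edgeR adjusted p = 1.10e-07). It is 1 of the 29 members whose aglaiacized RocA level was above the naive RocA level. A member of listed length 65 at rank 35 was also higher by more than 2-fold, with 5.797 and 5.12 CPM in naive DMSO and 9.70 and 11.6 CPM in aglaiacized DMSO. Under RocA it had 40.5 CPM in naive and 23.1 CPM in aglaiacized cells, so its order between the lines was opposite in DMSO and in RocA.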

How the data were processed

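Ribosome footprints of 6 libraries were compared. The authors deposited raw counts per transcript row with a length column, which has no stated unit (unit: other). CASAVA 1.8, Bowtie2 2.1.0, TopHat2 2.0.9 and the build hg19 are named in the submitters' processing notes, and the counting program is not given in the sources used here. Of 82960 rows, 63691 had a length. The 50582 of these with a count were merged into 38543 models where counts were equal in all 6 libraries, and CPM were computed from the totals of these models. The members and all groups of members were chosen with earlier results of these data known. The smallest p for 1 RocA against 2 DMSO libraries is 0.333 by an exact permutation test, so RocA had no test. The DMSO contrast came from edgeR 4.0.16 in R 4.3.3 (two-sided quasi-likelihood test, TMM, 4 groups, 2 residual degrees of freedom, mean count of at least 20), and DESeq2 1.42.0 was an alternative. On simulated counts for this contrast (31237 models, no RocA effect), 99 of 100 models changed by a log2 of 1 and 65 of 100 changed by 0.5 were called. The changed models all had a mean count of at least 100, so these rates do not cover models with fewer counts. A standard error (SE) was taken as the absolute log2 difference over the square root of F. Named by rule were the identifiers of the first 2 members by the smaller response, and other members were described by rank, run and listed length. The labels mention no molecular identifiers, so PCR copies may be counted and intervals cover counting error only.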

Additional observations from a re-analysis of the deposited data

How the results depend on the processing

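The number of members moved with the processing: from 415 to 108 with a pseudocount of 5 CPM, 36 without centring, 627 when models needed a mean of 20 counts, 93 when they needed 300, 139 with all libraries thinned to 8219273 counts (134 of them members), and 214 with 1 member per run, which was chosen after seeing the data. Centring lowers the thresholds to 0.935 and 0.759 on the uncentred log2 scale, and at 300 counts the medians themselves shift to -0.432 and -0.124. Of the 415 members, 270 had a mean count of at least 300. The number of members thus fell to 93 partly through the shifted medians. It was 519 with a pseudocount of 0.5 CPM, 458 with TMM-scaled totals and 599 without merging rows, and leaving out 1 DMSO library gave 372 to 532. The number of members that differed between the lines in DMSO was 211. It was 134 with DESeq2, 116 with 1 member per run, and 122 to 251 with 1 library left out. Deviations of DMSO replicates with the same number had a correlation of -0.054 between the lines, which does not settle whether libraries were paired. With the replicate block the number of differing members was 203, all of them among the 211. It was 211 with RLE factors, 210 with total counts (added after seeing the data), 212 at a minimum mean of 100 counts and 208 with no filter. The 2 named identifiers kept their direction and passed the threshold under every setting of the DMSO test. The median listed length of 335 became 160 at a minimum mean of 300 counts, 348 without merging and 328.5 with 1 member per run. Apart from the part set by the shifted medians, the causes of these shifts were not tested. Low counts limit the members most in aglaiacized RocA, and with 1 RocA library per line the spread of a response is unknown.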
